A study of Mus musculus with 6 samples.

Results

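The 8 genes described here, Mbp, Pmp22, Mal, Ncmap, Prx, Cnp, Egr2 and Sox10, are genes of Schwann cells and of the myelin sheath, and are set out here as markers of the nerve that lies within muscle. They were chosen by symbol, each on 1 row among the 52550 mouse genes of the deposited table, and all 8 were among the 13396 genes with enough counts to be compared. RNA of male mice aged 13 weeks was read from the quadriceps with QuantSeq, a method that sequences transcripts from their 3′ ends. Long and short transcripts thus yield reads alike, and levels of different genes can be set side by side without division by length. The 3 FLExDUX4 mice, on a B6(Cg) background, were hemizygous for a human DUX4 transgene that lies inverted between lox sites in the ROSA26 locus and is expressed at a very low level without a Cre driver, and the 3 WT mice were their littermates without the transgene. The methods give triceps at 2 months for this experiment, whereas the sample labels give quadriceps and 13 weeks. For each gene the count summed over the 3 mice of a genotype was used, in all 13110125 counts on genes for FLExDUX4 and 18367364 for WT. Single mice were left out, since the names of their columns match none of the sample labels. Every difference below is therefore the ratio of 2 totals with no replicate check, and a single mouse can decide it. No test across mice was run. A 95% Clopper-Pearson interval is given with each ratio and covers counting error only.

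Peripheral nerve runs through every skeletal muscle, and its motor and sensory axons are wrapped by Schwann cells. A myelinating Schwann cell winds its membrane around a single axon and compacts it with a small set of very abundant proteins, while non-myelinating Schwann cells hold bundles of thin axons or cap the neuromuscular junction. SOX10 marks the whole lineage and, together with EGR2 (also called KROX20), is known to switch on the myelin genes. In whole muscle, fewer Schwann cells and less RNA per Schwann cell cannot be told apart. Several of the genes are also known outside the nerve, PMP22 in fibroblasts and endothelium, periaxin in endothelium, MAL in T cells and epithelia, CNP in many cell types, and EGR2 as an immediate early gene.

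Of the 8 genes, 6 had 1 or more start sites in the RefSeq promoter table (GRCm38.p6), 14 in all, and in 4 a start site equalled the 5′ end of the gene in the GENCODE annotation. The 250 bases before each of those 4 starts are shown, and a link between them and the ratios was not tested. They lie at chr11:63128732-63128981 on the + strand (Pmp22), chr2:127656696-127656945 on the - strand (Mal), chr4:135398228-135398477 on the - strand (Ncmap) and chr7:27499074-27499323 on the + strand (Prx), and capitals mark CpG dinucleotides.
Pmp22: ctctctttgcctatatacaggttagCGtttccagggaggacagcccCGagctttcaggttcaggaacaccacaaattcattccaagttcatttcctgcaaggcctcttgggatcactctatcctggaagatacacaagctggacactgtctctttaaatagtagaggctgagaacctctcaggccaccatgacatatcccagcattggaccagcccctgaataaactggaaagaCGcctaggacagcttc
Mal: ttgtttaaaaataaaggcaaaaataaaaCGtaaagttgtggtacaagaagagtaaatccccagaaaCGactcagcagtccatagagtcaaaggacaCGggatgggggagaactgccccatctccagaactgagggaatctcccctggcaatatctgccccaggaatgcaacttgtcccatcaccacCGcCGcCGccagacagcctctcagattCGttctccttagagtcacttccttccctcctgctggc
Ncmap: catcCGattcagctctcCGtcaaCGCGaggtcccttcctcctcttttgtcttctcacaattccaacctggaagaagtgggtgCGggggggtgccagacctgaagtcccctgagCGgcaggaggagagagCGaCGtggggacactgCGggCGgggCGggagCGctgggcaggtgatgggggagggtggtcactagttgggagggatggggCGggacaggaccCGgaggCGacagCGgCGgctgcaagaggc
Prx: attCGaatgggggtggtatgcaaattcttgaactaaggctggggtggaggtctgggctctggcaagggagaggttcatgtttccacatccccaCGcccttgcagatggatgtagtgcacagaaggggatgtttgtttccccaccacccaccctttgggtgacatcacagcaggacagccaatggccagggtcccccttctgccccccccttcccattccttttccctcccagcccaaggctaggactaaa
The window held 3 CpG in Pmp22, 7 in Mal, 17 in Ncmap and 2 in Prx, against a median of 6 over 32851 promoter windows of the same length. Windows at other starts of the same genes differed, with 14, 14 and 27 CpG in Pmp22 and 8 in Ncmap. At the starts shown, the window was 66.0% G and C in Ncmap and 50.0% in Mal. The 14 windows were searched on both strands for the SOX motifs ACAAAG and ACAATG, which 25.2% of all windows hold, and for the EGR motif GCGNGGGCG, which 4.70% hold. The only match was ACAAAG in the Cnp window, from 167 to 162 bases before its start, and no match says only that these letters are not in these windows.

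Summed over the 8 genes there were 1381 counts in FLExDUX4 and 1870 in WT mice. Scaled by edgeR's TMM method to counts per 1000000 (CPM), this was 106 CPM against 101 CPM, a log2 ratio of 0.08 (interval -0.02 to 0.18). The summed level was thus alike in the 2 totals to within counting error under TMM. When the totals were scaled to the added spike-in RNAs in place of TMM, which shifts every gene by -0.28, the same ratio was -0.20 (interval -0.30 to -0.10), below 0. With that scaling the sum of all genes compared had a ratio of -0.25 and their median was -0.28, with 10042 of them below 0. Without Mal or without Ncmap the TMM ratio of the members' sum was 0.12 and 0.11, with intervals just above 0 (from 0.019 and 0.0038). Pmp22 and Mbp made up most of the sum, with 56.6% and 26.6% of the counts in FLExDUX4 and 54.3% and 23.5% in WT mice. Underneath, the genes went both ways. By the totals 4 were higher and 4 lower in FLExDUX4 mice, where 49.7% and 50.3% of all genes compared were, and the median log2 ratio of the 8 was -0.03, against -0.0030 over all genes compared. The sign of that median rests on single genes, since it was 0.14 without Mal and -0.20 without Mbp. Of the 4 higher, Egr2 had enough counts to be compared in the FLExDUX4 total alone, and without it the median was also -0.20.

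**Figure D1:**
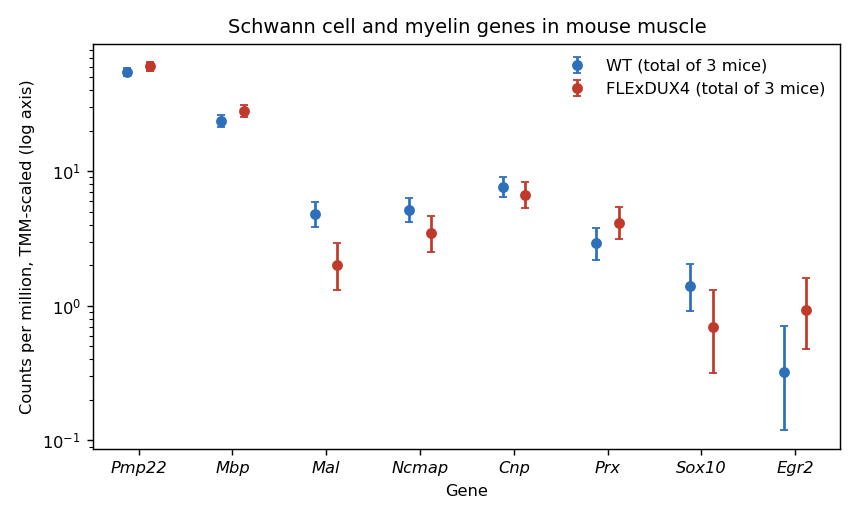
TMM-scaled counts per 1000000 (CPM, log axis) of each of the 8 genes in the WT total (blue) and the FLExDUX4 total (red), each over 3 mice, with 95% exact Poisson intervals for counting error. Pmp22, from 54.7 to 60.2 CPM, and Mbp stood above the other 6 genes, and the intervals of the 2 genotypes lay apart for Mal only.

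Pmp22 and Mbp encode proteins of compact myelin. Pmp22, a membrane protein whose gene dose underlies common inherited neuropathies, lies on chromosome 11 (63128982 to 63159547, + strand of GRCm38). It had 781 counts in FLExDUX4 and 1016 in WT mice, or 60.2 against 54.7 CPM. Its log2 ratio was 0.14 (interval 0.00048 to 0.27), and turned to -0.14 (interval -0.28 to -0.0031) with spike-in scaling. Pmp22 was the most counted of the 8 genes, above 89.0% of the genes compared in the FLExDUX4 total and 87.9% in the WT total. Mbp, on chromosome 18, encodes myelin basic protein, which binds the cytoplasmic faces of the membrane together. Mbp had 367 counts against 440, or 28.3 against 23.7 CPM. The log2 ratio of Mbp was 0.25 (interval 0.05 to 0.46), and -0.02 with spike-in scaling. Mbp transcripts of the longer golli form, which is also made outside the nerve, share the 3′ end of the gene, so a 3′ count does not separate them. For both abundant genes the difference between genotypes was small, and its direction depended on the scaling.

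Under TMM scaling, Mal and Ncmap were the members that were lower with an interval below 0. Mal (chromosome 2, 127633226 to 127656695, - strand) encodes a lipid raft protein that carries cargo to the myelin membrane. It had 26 counts in FLExDUX4 and 89 in WT mice, or 2.0 against 4.8 CPM. The log2 ratio of Mal was -1.25 (interval -1.95 to -0.61), a level 2.37-fold lower in FLExDUX4 mice, and with spike-in scaling it was -1.52. Ncmap (chromosome 4, 135369576 to 135398227, - strand) encodes a small protein of non-compact myelin. It had 45 counts against 96, or 3.47 against 5.17 CPM, a log2 ratio of -0.57 (interval -1.12 to -0.05). With spike-in scaling the ratio of Ncmap was -0.85. T cells also make MAL, and the T cell markers were all at or under 3 counts in both totals (5 of 5 genes, 3 counts summed in FLExDUX4 and 5 in WT), with Cd3e at 3 against 0, Cd4 and Trac at 0 against 2, Cd8a at 0 against 1 and Cd3g at 0 in both. The part of T cells in the counts of Mal was not tested.

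Prx and Cnp encode proteins that shape the cytoplasmic channels of the sheath. Periaxin, encoded by Prx (chromosome 7, 27499324 to 27520214, + strand), ties the outer Schwann cell membrane to dystroglycan. It had 54 counts in each total, or 4.16 against 2.91 CPM once the totals were scaled. The log2 ratio of Prx was 0.51 (interval -0.06 to 1.09), and 0.24 with spike-in scaling. Counting error alone leaves its direction undecided. Gm15541, an antisense gene that overlaps Prx by 5405 bases, had 3 and 7 counts. Cnp (chromosome 11, 100574904 to 100591729, + strand) encodes the enzyme CNPase, which lies within these channels and keeps them open. It had 87 counts against 143, or 6.71 against 7.71 CPM, a log2 ratio of -0.20 (interval -0.60 to 0.19) that was -0.48 (interval -0.88 to -0.08, below 0) with spike-in scaling. Cnp overlaps the opposite-strand gene Dnajc7 by 8912 bases, and Dnajc7 had 752 and 1035 counts. Whether strand was used in the counting is not given in the sources used here, so the value of Cnp is uncertain.

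Both transcription factors had few counts, and their ratios had opposite signs. Sox10 (deposited start 79154913 on chromosome 15) had 9 counts in FLExDUX4 and 26 in WT mice, or 0.694 against 1.40 CPM. Its log2 ratio was -0.98 (interval -2.29 to 0.12), and -1.26 with spike-in scaling. Egr2 (chromosome 10, 67535475 to 67542188, + strand) had 12 counts against 6, or 0.925 against 0.323 CPM. The log2 ratio of Egr2 was 1.43 (interval -0.0091 to 3.22), and 1.15 with spike-in scaling. Egr2 reached the minimum of 0.635 CPM in the FLExDUX4 total alone, so that a lower level there would have left it out of the comparison. Under TMM scaling neither factor showed a difference beyond counting error, while with spike-in scaling the interval of Sox10 lay below 0 (-2.57 to -0.15).

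**Figure D2:**
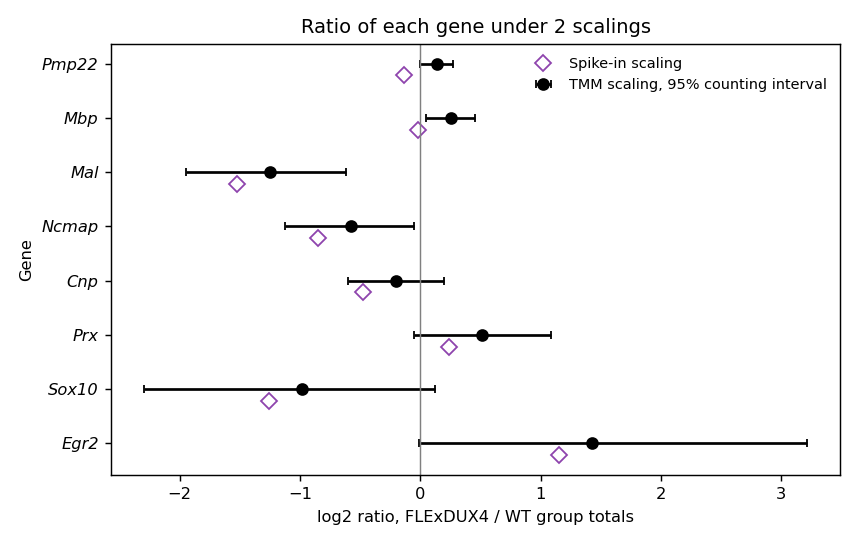
log2 ratio of the FLExDUX4 to the WT total for each of the 8 genes, under TMM scaling with its 95% Clopper-Pearson interval (black) and under spike-in scaling (purple diamonds). Mal, at -1.25 and -1.52, is far below 0 under both scalings, while Pmp22 and Mbp change sign with the spike-ins.

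Egr2 is also induced by activity, so the other immediate early genes are set beside it. Of 8 listed, 6 were compared, 5 were lower in FLExDUX4 mice (Egr3, named after its values were seen, reached the minimum level in WT alone) and 1 was higher. The median log2 ratio was -0.68. Intervals lay below 0 for 5 and above 0 for 1, against 20.6% and 20.5% of all genes compared. Fos had 59 counts in FLExDUX4 and 364 in WT mice, and its ratio was -2.10 (interval -2.53 to -1.71). Egr1, at 78 and 170 counts, stood at -0.60 (interval -1.01 to -0.21). Junb had a ratio of -0.76 and Nr4a1 of -0.33. The one higher was Ier2, named after its values were seen, at 1.03 (interval 0.50 to 1.59). Fosb had 3 counts against 11, and Egr4 had none in either total. With 18 counts in all, a filter passed through FLExDUX4 alone and an interval that includes 0, the ratio of Egr2 cannot be set against theirs.

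The size of a ratio must be read against the number of counts behind it. Past a 1.5-fold difference, Mal and Sox10 were lower and Egr2 was higher, 2 and 1 of the 8 genes, where 13.7% and 13.1% of all genes compared were. Ncmap lay just inside this limit, at 1.49-fold, and passed it with spike-in, upper quartile or gene total scaling, where 3 of the 8 genes and 23.8%, 14% and 14.4% of all genes were lower by that fold. It also passed it over the 12007 genes with at least 10 counts in each total, where 2 of 6 members and 8.89% of the genes were lower by that fold. Among 2483 genes with 15 to 49 combined counts, the range that holds Egr2 and Sox10, 35.9% were lower and 32.5% higher by that fold, and an interval lay wholly below 0 for 21.1% and wholly above 0 for 17.7%. Ratios past 1.5-fold were thus common among genes with so few counts. Among 6336 genes with at least 50 and under 500 counts, the range of Mal, Ncmap, Prx and Cnp, 14.2% were lower and 13.6% higher by that fold, and the median size of the log2 ratio was 0.35. In this range 18.7% of the intervals lay below 0 and 19.6% above. Among 3193 genes with at least 500 and under 2000 counts, which hold Pmp22 and Mbp, the median size was 0.17. There 1.16% were lower and 2.13% higher by that fold, and 21.2% of the intervals lay below 0 and 22.1% above. An interval wholly below 0 was found for 2 members (Mal and Ncmap) and one wholly above 0 for 2 (Pmp22 and Mbp), against 20.6% and 20.5% of all genes compared. With 8 genes and TMM scaling, 1 gene more or less moves such a share by more than its distance from the background. The shares lower by 1.5-fold under the other scalings named and over the 12007 genes lay further off than 1 gene moves them.

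**Figure D3:**
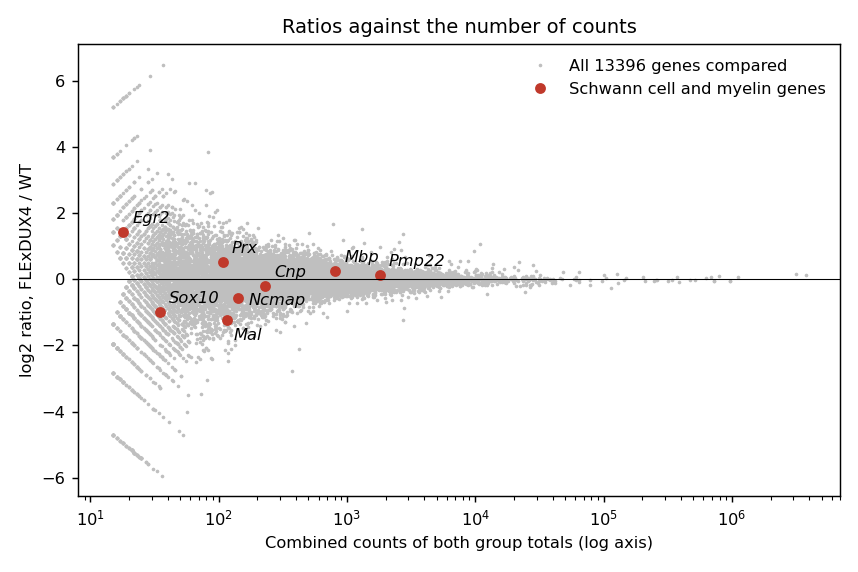
log2 ratio of the FLExDUX4 to the WT total against the combined counts of both totals (log axis) for all 13396 genes compared (grey) and the 8 Schwann cell and myelin genes (red). The grey cloud narrows as counts rise, and the red points lie inside it, with Mal at -1.25 the lowest of them.

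Other proteins of the myelin sheath were set beside the 8. Of the 8 reported here, 6 were compared, 4 higher and 2 lower in FLExDUX4 mice, 1 of the higher through its FLExDUX4 level alone (Cadm4, named after its values were seen). Their median was 0.47 on the log2 scale, and 0.19 with spike-in scaling, and no sum is given because the list is not complete. Drp2, the dystrophin-related partner of periaxin, had 99 counts in FLExDUX4 and 111 in WT mice (log2 ratio 0.35, interval -0.05 to 0.76), a ratio of the same sign as that of Prx. Pllp, plasmolipin, had 28 and 49 (-0.29, interval -1.02 to 0.41), and Cldn19, a claudin of Schwann cell tight junctions, had 20 and 29 (-0.02, interval -0.92 to 0.85). Gldn, gliomedin, which gathers sodium channels at the node of Ranvier, had 47 and 22 (1.59, interval 0.85 to 2.41). Gjb1, connexin 32, had 9 counts against 0, at least 4.29-fold higher with the WT total set at a floor of 3 counts. Counting error puts the lower limit of its log2 ratio at 1.5. Cldn11 had 0 against 2.

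Markers of non-myelinating or immature Schwann cells gave 25.2 CPM in FLExDUX4 and 24.1 CPM in WT mice when summed, a log2 ratio of 0.06 (interval -0.15 to 0.27). Of 7 listed, 6 were compared, 4 higher and 2 lower, with a median of 0.15 that was -0.13 with spike-in scaling. Of the 4 higher, 2 (L1cam and Cdh19, the latter named after its values were seen) reached the minimum level in the FLExDUX4 total alone, so the count and the median lean on the filter. Ncam1 had 99 and 123 counts (0.20, interval -0.19 to 0.60), Scn7a 113 and 192 (-0.25, interval -0.60 to 0.09), and S100b 56 and 100 (-0.32, interval -0.82 to 0.17). The adhesion molecule L1cam, which is also made by axons, had 28 and 11 (1.81, interval 0.81 to 3.02), and Gfap had no count. Under TMM the summed level of this list, like that of the 8 genes, differed between the genotypes by less than its counting error. With spike-in scaling its ratio was -0.21 (interval -0.42 to -0.0049), below 0, where the sum of all genes compared stood at -0.25.

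Transcription factors of the Schwann lineage other than Sox10 and Egr2 had a median log2 ratio of -0.20 over 7 of 9 genes, 6 of them lower. Most of their counts fell on Tead1, Jun and Zeb2, which other cells of muscle also make, Tead1 with 2448 against 4074 counts (ratio -0.22, interval -0.29 to -0.15), Jun with 1228 against 2017 (-0.20, interval -0.30 to -0.10) and Zeb2 with 507 against 753 (-0.05, interval -0.22 to 0.11). Nab1, a corepressor that binds EGR2, had 217 and 357 counts (-0.20, interval -0.45 to 0.05). Intervals lay below 0 for 4 of the 7, where those of 20.6% of all genes compared did. These were Tead1, Jun and also Foxd3 (18 against 58 counts, -1.15, interval -2.02 to -0.39) and Nab2 (-0.51, interval -1.01 to -0.02), the last pair named after their values were seen. Pou3f2 had 1 count and Sox2 none. Ligands and receptors of Schwann cells had a median of -0.06 over 7 of 8 genes, 5 of them lower, and of -0.20 when no filter was applied. One of the 2 higher, Erbb2, named after its values were seen, reached the minimum level in the FLExDUX4 total alone. Erbb3, the neuregulin receptor, had 20 and 36 counts (-0.33, interval -1.20 to 0.50). Lgi4, which Schwann cells secrete, had 39 against 45 (0.31, interval -0.35 to 0.96), and its axonal receptor Adam22 had 3 against 45 (-3.22, interval -5.72 to -1.75), reaching the minimum level in the WT total alone. Adgrg6 had a ratio of -0.05 and the widely made Gas6 of -0.06, and Nrg1 had 0 against 2 counts.

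Enzymes that make myelin lipids and sterols had a median log2 ratio of -0.06 over 7 of the 9 genes reported here, 4 lower and 3 higher. Hmgcs1 had 342 counts against 612 (-0.32, interval -0.52 to -0.13), Scd2 200 against 385 (-0.43, interval -0.68 to -0.18), Cers2 208 against 311 (-0.06, interval -0.32 to 0.19) and Fdft1 199 against 265 (0.10, interval -0.17 to 0.37). Fa2h, which hydroxylates the fatty acids of myelin lipids, had 10 against 3 (2.05, interval 0.30 to 4.75), and Gal3st1 had 0 against 2. Muscle fibers and fat also make sterols, so these genes are no measure of nerve alone.

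**Figure D4:**
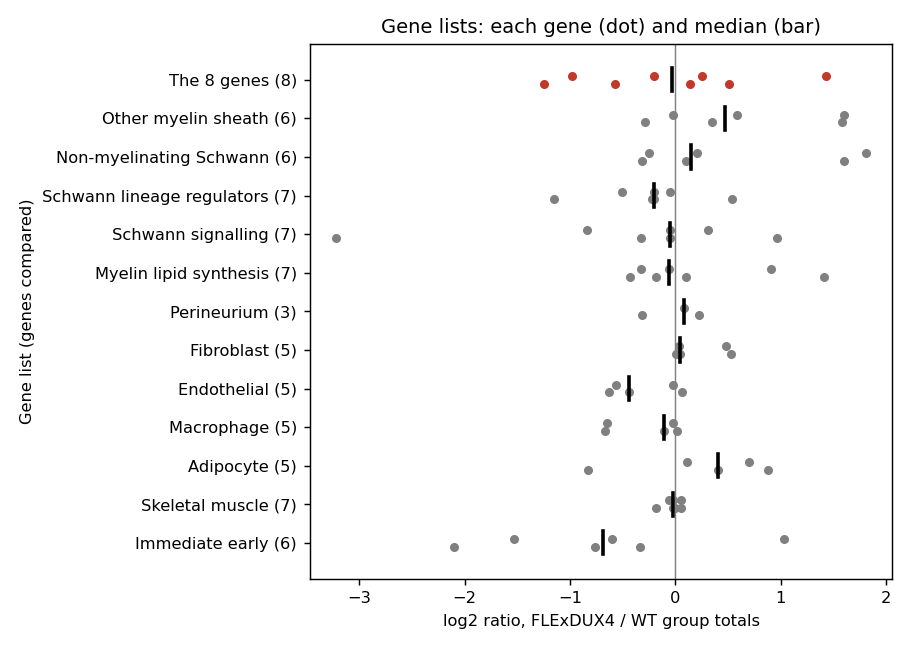
log2 ratio of the FLExDUX4 to the WT total for each gene compared (dots) and the median (black bars) in 13 gene lists, with the number of genes compared in parentheses. The medians of the 8 genes (red) and of skeletal muscle lie near 0, at -0.03 and -0.02, and the immediate early list has the lowest median, at -0.68.

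The markers of central myelin were at 0 and those of muscle were high. All 5 markers of oligodendrocytes, the myelin cells of the central nervous system (Mog, Mobp, Opalin, Olig1 and Olig2), had 0 counts in both totals, whereas 7 skeletal muscle genes took 10.4% of the FLExDUX4 and 10.6% of the WT counts. Of 8 axon and motor neuron genes, whose mRNA lies mostly in distant cell bodies, 1 was compared, Stmn2 with 36 against 42 counts (0.29, interval -0.39 to 0.97). Nefl had 5 counts against 0 (at least 2.38-fold higher against a floor of 3 counts, with a lower limit of 0.39 on the log2 scale from counting error), Nefm 0 against 4, Nefh 0 against 2, Prph 3 against 0 and Tubb3 0 against 1, and Chat and Slc5a7 had none. Markers of the perineurium, the sheath around a nerve bundle, had a median of 0.08 over 3 of 4 genes (-0.19 with spike-in scaling), with Cldn1 at -0.31 (50 against 89 counts), Slc2a1 at 0.08, Tjp1 at 0.23 and Lypd2 with 4 against 7 counts.

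Other cell types of muscle that can also make some of the 8 genes did not all stand level. Endothelial markers were lower for 4 of 5 genes, with a median of -0.44 (-0.72 with spike-in scaling) and a summed level of 161 CPM in FLExDUX4 against 188 CPM in WT mice. Among them Kdr had a ratio of -0.56 (interval -0.70 to -0.42), Emcn of -0.44 (interval -0.81 to -0.09), Cdh5 of -0.03 (interval -0.19 to 0.14) and Pecam1 of 0.06 (interval -0.07 to 0.20). Fibroblast markers were higher for all 5 genes under TMM, with a median of 0.05 that was -0.23 with spike-in scaling, and a summed level of 1247 against 1129 CPM. Of these 5 intervals, 2 lay above 0, against 20.5% of all genes compared, and the smallest ratio was 0.0055. Col1a1 had 293 against 202 CPM, a large part of the gap in the sum. Macrophage markers had a median of -0.11 (-0.38 with spike-in scaling), with 4 of 5 lower and 72.0 against 75.7 CPM. Adipocyte markers were higher for 4 of 5, with a median of 0.41 and 373 against 294 CPM, and for 3 of 5 with a median of 0.13 under spike-in scaling. Muscle markers had a median of -0.02 (-0.30 with spike-in scaling), with 5 of 7 lower and from -0.19 to 0.05. The part of these cell types in the ratios of Pmp22, Prx, Mal and Cnp was not tested.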

How the data were processed

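Quadriceps RNA of 3 FLExDUX4 and 3 WT male mice was sequenced with QuantSeq. The authors deposited raw counts per gene, summed over each genotype, after trimming with cutadapt 1.16 and alignment with STAR 2.5.3a to GRCm38 joined to ERCC and SIRV spike-ins. The submitters' processing notes also name featureCounts 1.6.2. Another 6 columns give single samples under numbers found in none of the labels and were not used, nor were the authors' fold changes, p-values and mean normalized counts. The edgeR quasi-likelihood test that had been planned needs values per sample and was not run.

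The gene totals were scaled by TMM over the 13396 genes kept by filterByExpr (edgeR 4.0.16, R 4.3.3), without spike-ins, and a pseudocount of 0.5 was added for log2 ratios. Clopper-Pearson intervals (Python 3.11.15, scipy 1.17.1) cover counting error only. Totals were also simulated with counting error alone and no variation between mice. On these the intervals held the true ratio for 96.1% of 13196 unchanged and 95.0% of 200 changed genes. Such a simulation cannot show how the intervals hold where mice differ. In each list the named genes were the 4 with the most counts, those with an interval beyond a 1.5-fold difference and those with at most 3 counts in a group. The muscle, fibroblast, macrophage and adipocyte lists are given by their summaries alone, apart from Col1a1. Some genes of the myelin sheath and lipid lists are not reported here, and the values of those lists leave them out. Members and lists were chosen with earlier results of these data known. Coordinates are from GENCODE M21 (GRCm38), printed where its start equals the deposited one. Promoters are from RefSeq (GRCm38.p6).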

Additional observations from a re-analysis of the deposited data

How the results depend on the processing

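No paired analysis was possible because the columns of single samples carry numbers that no label gives, and groups were taken from labels alone. DESeq2 and leaving out replicates were not run, for that reason. RLE, upper quartile, gene totals, the filters, pseudocounts of 1 and 2 and leaving out Egr2 and Sox10 together gave summed ratios of the 8 genes from 0.0491 to 0.0818 and medians from -0.0613 to -0.0302. With spike-in totals the summed ratio was -0.197 and the median -0.307, against -0.246 and -0.279 over all genes compared. Intervals lay below 0 for 5 members and above 0 for 0, against 47.1% and 7.59% of all genes. Mbp (-0.022), Pmp22 (-0.139) and the medians of the fibroblast (-0.229), non-myelinating (-0.126) and perineurium (-0.193) lists changed sign. Without a filter the perineurium median was -0.101 and that of ligands and receptors -0.20. The number of intervals above 0 was 1, in place of 2, with upper quartile, gene totals, no filter, and at least 10 counts in each total, since Pmp22, whose lower bound was 0.00048 under TMM, then reached below 0. With at least 10 counts in each total, Egr2 and Sox10 drop out and 0 members were higher by 1.5-fold. The median of the 8 genes rests on single genes. It was -0.200 without Mbp, Pmp22, Prx or Egr2 and 0.137 without Mal, Ncmap, Cnp or Sox10, each left out alone, when the summed ratio ran from 0.0071 without Pmp22 to 0.122 without Mal, and -0.218 without Cnp and Egr2, an alternative chosen after seeing the data. Over all alternatives Mal ranged from -1.52 to -1.21, Ncmap from -0.85 to -0.56 and Prx from 0.24 to 0.51. With 9 to 26 counts for Sox10 and 6 to 12 for Egr2, depth limits what can be said of both.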
